A study of Mus musculus with 15 samples.

Results

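The ubiquitin-specific proteases (USPs) are the largest family of deubiquitinases, the enzymes that remove ubiquitin from proteins. The genes described here are the 48 rows of the deposited count table, out of 53278, whose symbol is Usp followed by a number, with the suffix x, l1, l2 or l3 allowed. The interferon-induced Usp18 was left out. Of the 48 genes, 46 passed the filter on low counts and were tested among 18369 genes. Usp44 had 11 reads over all libraries and Usp26 had 5, and neither was tested.

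The cortex of 15 male C57BL/6J mice aged 10 to 20 weeks was sequenced in bulk, with 1 library per mouse and 3 groups of 5. Control mice ate control food. The PLX3397 group ate food containing this drug for 9 days. The repopulation group did the same for 9 days and then returned to control food for 9 days. PLX3397 blocks CSF1R, the receptor kinase on which microglia depend for survival, and also inhibits the related kinases KIT and FLT3. No genetic alteration is named for any group. A single control group served both comparisons, and time since the start of the diet and repopulation cannot be told apart.

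Ubiquitin is attached to proteins by a chain of E1, E2 and E3 enzymes, and marks them for the proteasome, for sorting in endosomes or for a change of activity. USPs cut it off again with a papain-like cysteine protease domain, and each member has its own flanking domains and partners that set its substrates and place in the cell. In neurons, members of the family act on surface receptors, on proteasomes at synapses and on chromatin. Many USPs are large proteins with long transcripts. Exon lengths given here are annotated exon bases merged over all isoforms of a gene, which can exceed the length of any single transcript.

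Total counts ran from 23413551 to 48617851 per library, the highest being control 1, so that 1 CPM (the unit of read counts scaled to library size, here with TMM factors) rested on 23.4 to 48.6 reads. USP genes took 0.373% to 0.382% of all reads in control libraries, 0.393% to 0.417% on PLX3397 and 0.411% to 0.417% after repopulation. All 12 microglial markers listed were lower on PLX3397, with a summed level of 327 to 361 CPM in controls, 14.3 to 18.2 CPM on PLX3397 and 354 to 400.3 CPM after repopulation. All 6 markers of oligodendrocyte precursors were also lower on PLX3397 (summed 149.6 to 179.9 CPM in controls against 56.1 to 103.6 CPM), and 6 of 8 oligodendrocyte markers were higher. Choroid plexus markers summed to 8.59 to 24.1 CPM in controls and reached 213 CPM on PLX3397 and 549 CPM after repopulation in the highest libraries, with 0 of 6 called. All 5 tested border macrophage markers, 5 of 8 endothelial markers, 4 of 8 inhibitory neuron markers, 2 of 8 mural cell markers and 1 of 8 excitatory neuron markers were lower on PLX3397, and 1 of 8 astrocyte markers was higher. After repopulation against control, 4 inhibitory neuron markers were lower and 2 higher, 3 astrocyte markers were lower, and 2 excitatory neuron and 2 oligodendrocyte markers were lower. Endothelial markers were then split between 2 higher and 2 lower. Of the 12 microglial markers 3 were higher and 1 lower than in controls, and of the 8 mural cell markers 2 were higher and 1 lower. Of the 6 oligodendrocyte precursor markers 1 was higher, and 0 of the 5 border macrophage markers were called. In bulk tissue, fewer cells of a type and less RNA per cell cannot be told apart, and the part of these shifts in the results on USP genes was not tested.

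Nearly the whole family was expressed in cortex. Of the 46 tested genes, 44 had a mean of at least 1 CPM in every group, and only Usp50 and Usp51 fell below it. Per kilobase of annotated exon, the highest level in control cortex was that of Usp22, the deubiquitinase of the SAGA chromatin complex, at 52.7 CPM per kb. Usp5, which takes apart free ubiquitin chains, followed at 45.4, Usp11 at 30.8, Usp32 at 26.4, Usp19 at 25.7 and Usp7 at 24.9 CPM per kb. The very large members stood lower on this scale, with Usp9x at 10.9, Usp24 at 9.32 and Usp34 at 8.38 CPM per kb. Along this order of 48 genes, the 5 control libraries of neighbouring genes did not overlap in 11 of 47 neighbouring pairs and overlapped in 36.

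On PLX3397, 13 of the 46 tested USP genes were higher than in controls and 0 were lower (edgeR quasi-likelihood test, Benjamini-Hochberg adjusted p below 0.05). That is 28.3% of the family, beside 8.19% of all tested genes higher and 8.35% lower. The 13 were Usp7, Usp8, Usp9x, Usp11, Usp14, Usp15, Usp32, Usp33, Usp34, Usp43, Usp45, Usp47 and Usp53. Changes were small, between 0.12 and 0.41 on the log2 scale. The median log2 fold change of the family was 0.08, beside -0.00 for all genes, and 36 of 46 folds were above 0. Libraries of the groups did not overlap for 5 higher genes (Usp9x, Usp14, Usp33, Usp34 and Usp47), a share of 10.9% beside 4.99% of all genes, and for 1 lower gene, Usp21 (5.38% of all genes), whose fold did not pass the test at -0.10 (SE 0.04, adjusted p = 0.139).

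After repopulation, 19 of the 46 were higher than in controls and 0 were lower, or 41.3% beside 13.9% of all genes higher and 15.2% lower. To the list on PLX3397 this adds Usp13, Usp16, Usp24, Usp25, Usp40, Usp42, Usp48 and Usp54, while Usp43 and Usp45 were not called. The family's median was 0.11 beside 0.01 for all genes, and 41 of 46 folds were above 0. For 15 genes every repopulation library lay above every control library, beside 10.5% of all genes. The 2 comparisons share their control libraries, so they are not independent of each other.

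Between the PLX3397 and repopulation groups the family differed little. Usp24, Usp42 and Usp49 were higher after repopulation and 0 members were lower, or 6.52% of the family beside 7.61% of all genes higher and 8.98% lower, which is close to the background. The median was 0.05 beside 0.00 for all genes. Without PLX3397 replicate 1 the count was 1, and without PLX3397 replicate 5 it was 5. Libraries did not overlap for Usp8 and Usp40, both higher (5.57% of all genes). Relative to the control mean, the median log2 difference over the tested members was -0.02 to 0.01 in the 5 control libraries, 0.03 to 0.12 in those on PLX3397 and 0.10 to 0.13 after repopulation, so that the PLX3397 libraries were the most spread. Over the 3 comparisons, 22 members were called in at least 1 and 24 in none.

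**Figure D1:**
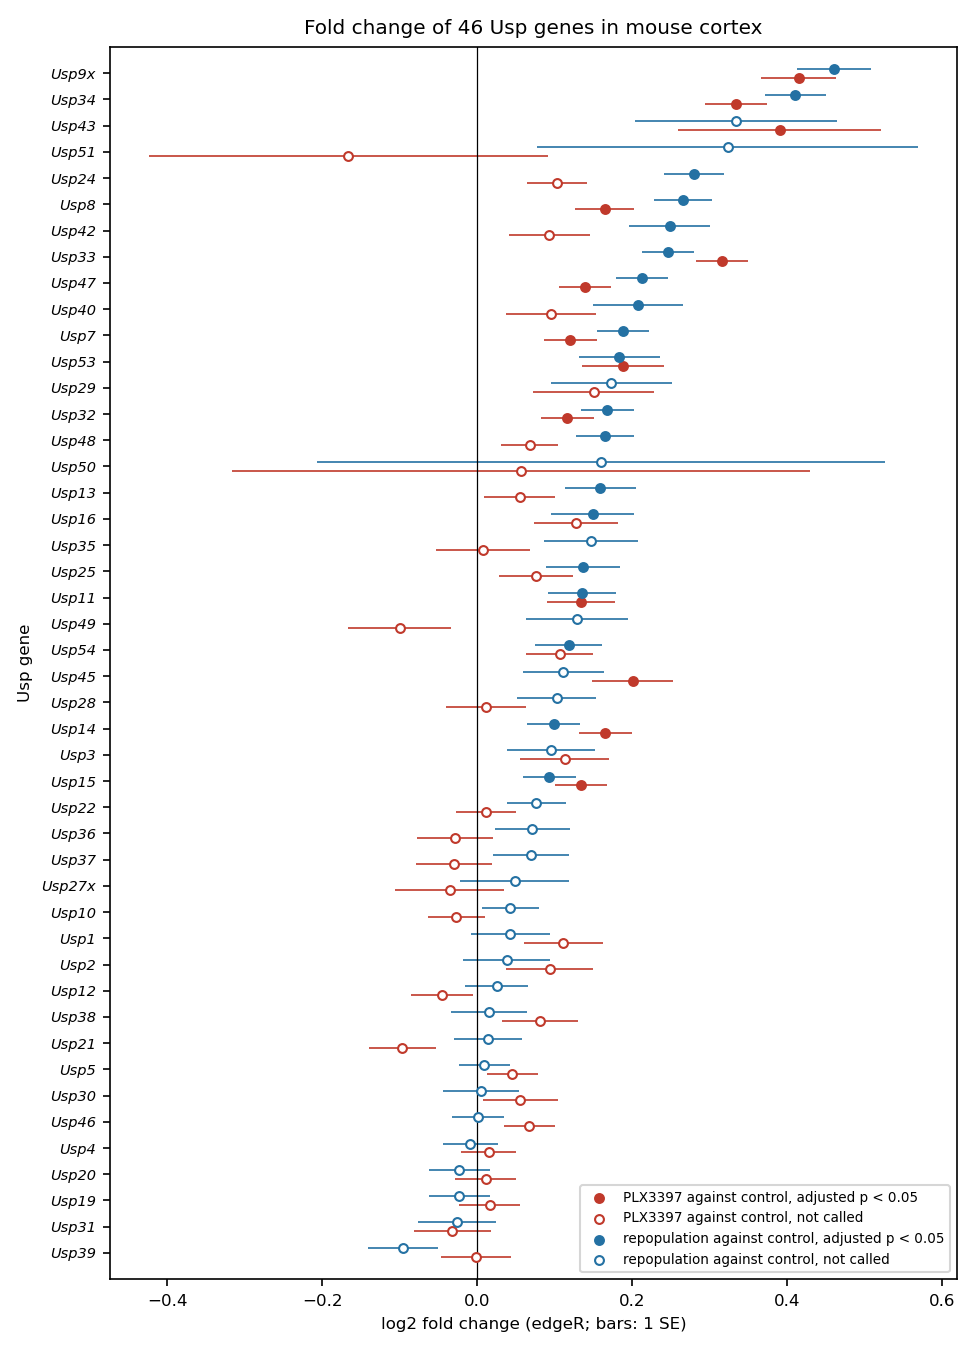
Log2 fold change of the 46 tested USP genes, on the horizontal axis, on PLX3397 against control (red) and after repopulation against control (blue), with bars of 1 SE and filled points for adjusted p below 0.05. The filled points all lie to the right of 0, with Usp9x and Usp34 farthest out after repopulation at 0.46 and 0.41.

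Of the 3 members listed as very large (Usp9x, Usp24 and Usp34), 2 were higher on PLX3397 and 3 after repopulation against control. Of all genes in the longest quintile by exon length, 22.4% and 38.4% were. The 3 are not those with the longest exon sequence. Usp29 (18.1 kb, no call in any comparison) holds more than Usp24, as do Usp15 (16.6 kb), Usp47 (13.8 kb) and Usp53 (12.6 kb), which were higher in both comparisons. Usp9x (chrX:13071498-13173328, GRCm38, plus strand, 15.1 kb of exon) is an X-linked enzyme needed for normal brain development that stabilises substrates in survival signalling, protein sorting and cell adhesion. Its level was 168, 156, 161, 165 and 168 CPM in the 5 control libraries, 221, 209.9, 198, 211 and 249.6 CPM on PLX3397 and 211, 232, 220.0, 221 and 241 CPM after repopulation. All 10 libraries of the treated groups lay above all 5 controls, and the treated groups overlapped each other. The log2 fold change was 0.41 (SE 0.05, adjusted p = 1.3e-06) on PLX3397, 0.46 (SE 0.05, adjusted p = 1.2e-06) after repopulation and 0.05 (SE 0.05, adjusted p = 0.586) between those groups. Usp9y, its Y-linked relative, lies outside the symbol rule and had 8 reads in all.

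Usp34 (chr11:23306895-23490560, plus strand, 18.5 kb of exon), which acts on axin in Wnt signalling, had the longest exon sequence among the tested members. Control libraries held 146, 161, 153, 160.2 and 153 CPM, those on PLX3397 194, 186, 193, 184 and 218 CPM and those after repopulation 200.2, 207, 205, 204 and 212 CPM. Again no control library reached a treated one, and PLX3397 replicate 5 was the highest of the 15. The fold was 0.33 (SE 0.04, adjusted p = 9.4e-07) on PLX3397 and 0.41 (SE 0.04, adjusted p = 4.9e-07) after repopulation. Between these groups it was 0.08 (SE 0.04, adjusted p = 0.208), and without PLX3397 replicate 5 it passed the test at 0.12 (adjusted p = 0.017). Of its exon bases 11.6% also belong to Ahsa2 on the other strand, and the use of strand in counting is not given in the sources used here.

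Usp24 (chr4:106316213-106441322, plus strand, 12.3 kb of exon), the third of these giants, differed mainly after repopulation. Its level was 110.1, 117, 117, 119 and 113 CPM in controls, 117, 121, 124, 120.0 and 137 CPM on PLX3397 and 139.9, 139, 136, 137 and 146 CPM after repopulation. Every repopulation library lay above every control, while PLX3397 libraries overlapped both groups. The fold was 0.28 (SE 0.04, adjusted p = 9.9e-06) after repopulation against control and 0.18 (SE 0.04, adjusted p = 0.0022) against PLX3397. On PLX3397 against control it was 0.10 (SE 0.04, adjusted p = 0.072), and this passed without PLX3397 replicate 1 (adjusted p = 0.0333) but fell to 0.06 without PLX3397 replicate 5 (adjusted p = 0.251).

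Among members of membrane traffic and endosomes, 4 of 9 tested were higher on PLX3397 and 4 after repopulation, 0 were lower in either, and the same 4 genes, Usp8, Usp9x, Usp32 and Usp33, were called both times. Of all genes 8.19% and 13.9% were higher, and of those in the longest quintile 22.4% and 38.4%, while the median exon length of the 9 was 7.84 kb. Usp33 (chr3:152346478-152393617, plus strand, 9.68 kb of exon) deubiquitinates the beta-adrenergic receptor after its uptake and the axon guidance receptor Robo1. It stood at 103, 108, 105, 105 and 107 CPM in controls, 137, 124, 126, 138 and 133 CPM on PLX3397 and 126, 127, 126, 125 and 123 CPM after repopulation. Controls were tightly grouped and below all treated libraries, and 3 of 5 PLX3397 libraries lay above the whole repopulation group. Its fold on PLX3397, 0.32 (SE 0.03, adjusted p = 1.3e-07), had the smallest adjusted p of the family, and after repopulation it was 0.25 (SE 0.03, adjusted p = 8.7e-06). The fold between the treated groups was -0.07 (SE 0.03, adjusted p = 0.175). Of the exon bases of Usp33, 15.3% also belong to Gm43857, 7.70% to Gm42967 and 1.44% to Gm43859, all on the other strand. As the use of strand in counting is not given, its count and its ratio to Usp20 carry this doubt.

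Usp20, the closest relative of Usp33 with overlapping receptor substrates, had no such difference. Its libraries held 90.9, 94.6, 90.5, 90.9 and 87.7 CPM in controls, 90.3, 91.6, 86.9, 89.2 and 100.2 CPM on PLX3397 and 87.9, 85.8, 93.1, 86.6 and 94.0 CPM after repopulation. The 3 groups overlapped throughout. Its fold was 0.01 (SE 0.04, adjusted p = 0.9) on PLX3397 and -0.02 (SE 0.04, adjusted p = 0.716) after repopulation.

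Usp8 (chr2:126707328-126759297, plus strand), which removes ubiquitin from receptors such as EGFR at the early endosome and is mutated in pituitary tumours of Cushing disease, has 4.19 kb of exon. It held 72.5, 73.1, 70.8, 76.2 and 76.8 CPM in controls, 83.0, 76.7, 83.7, 83.9 and 86.5 CPM on PLX3397 and 87.3, 86.8, 87.2, 91.4 and 91.0 CPM after repopulation. The repopulation libraries were all above both other groups, and only 1 PLX3397 library, replicate 2, fell within the control range. The fold was 0.16 (SE 0.04, adjusted p = 0.00329) on PLX3397, 0.27 (SE 0.04, adjusted p = 1.2e-05) after repopulation against control and 0.10 (SE 0.04, adjusted p = 0.0668) after repopulation against PLX3397. Stam, its partner in endosomal sorting, was at 66.5, 74.4 and 70.1 CPM in control, PLX3397 and repopulation, with a fold on PLX3397 of 0.16 (SE 0.04, adjusted p = 0.00546).

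Usp32, which acts on Rab7 in the late endosome, had group means of 203, 219.7 and 228 CPM in the same order. Its fold was 0.12 (SE 0.03, adjusted p = 0.0204) on PLX3397 and 0.17 (SE 0.03, adjusted p = 0.000549) after repopulation, and the first call was lost without control replicate 1 or 3 or PLX3397 replicate 3 (adjusted p up to 0.0735). The others of this group passed no test. Usp46, which with its cofactor Wdr48 acts on AMPA receptors, had means of 135, 141 and 135 CPM, Usp12 76.3, 73.9 and 77.6 CPM and Usp10 63.4, 62.2 and 65.3 CPM. Usp2, an enzyme with a circadian rhythm, had means of 81.3, 86.6 and 83.3 CPM.

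**Figure D2:**
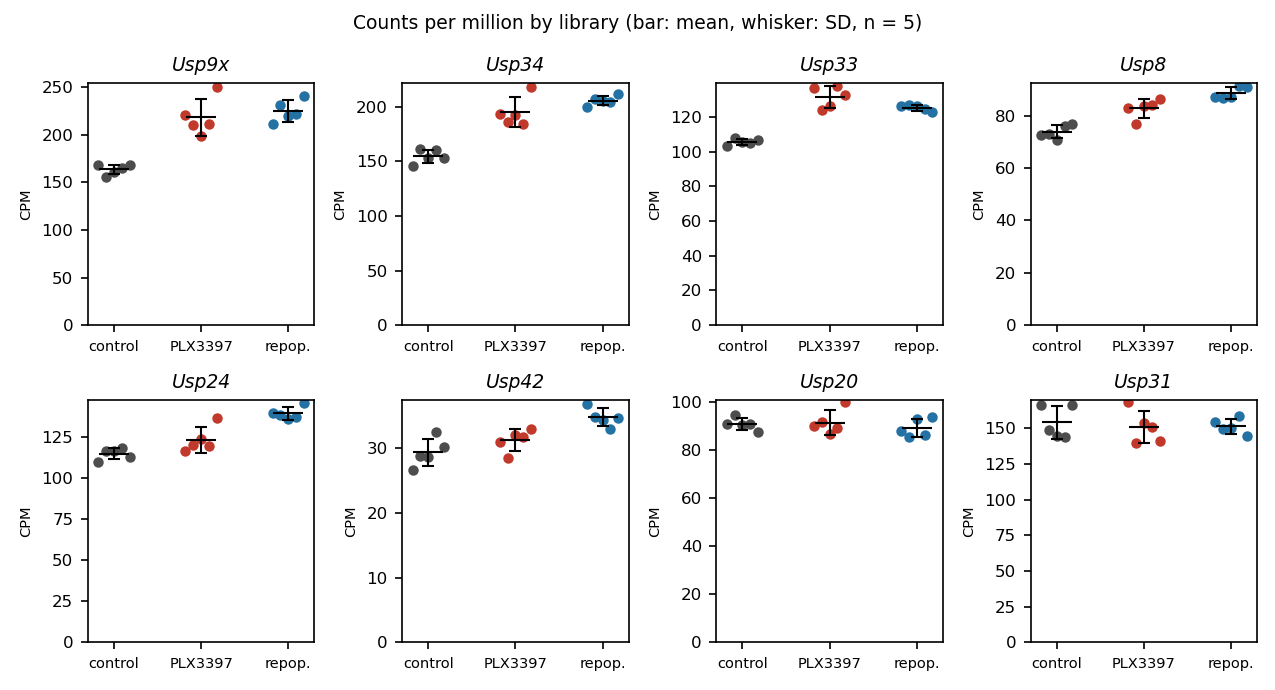
CPM of 8 USP genes in each library, by group, with the mean as a bar and the SD as a whisker (n = 5). All control points of Usp9x, Usp34 and Usp33 lie below all treated points, Usp24 and Usp42 stand apart only after repopulation, and the groups of Usp20 and Usp31 overlap.

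Of the 3 members that handle free chains or sit on the proteasome, Usp14 was higher on PLX3397 and Usp13 and Usp14 after repopulation. Of all genes 8.19% and 13.9% were higher, and of those in the longest quintile 22.4% and 38.4%. Counts of so few members were not tested against these shares. Usp14 (chr18:9993066-10045119, minus strand, 8.35 kb of exon) trims ubiquitin from proteasome substrates, and its loss in the ataxia mouse impairs synapses. It held 118, 119.7, 116, 125 and 122 CPM in controls, 131, 130.1, 136, 141 and 135 CPM on PLX3397 and 132, 133, 123, 128 and 128 CPM after repopulation. All PLX3397 libraries lay above the controls, and the repopulation libraries overlapped the upper controls. The fold was 0.17 (SE 0.03, adjusted p = 0.00131) on PLX3397 and 0.10 (SE 0.03, adjusted p = 0.0303) after repopulation. The second call was lost without any 1 of control replicates 1 to 3 or repopulation replicates 1 and 2 (adjusted p up to 0.0997), and 26.0% of its exon bases overlap Thoc1 on the other strand.

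Usp5 disassembles unanchored ubiquitin chains, and its level was 201, 222, 208, 216 and 202 CPM in controls, 213, 213, 211, 217 and 228 CPM on PLX3397 and 209, 209.6, 216, 207 and 215 CPM after repopulation. The groups overlapped, with folds of 0.05 (SE 0.03, adjusted p = 0.396) on PLX3397 and 0.01 (SE 0.03, adjusted p = 0.872) after repopulation. Its relative Usp13 held 42.9, 48.8, 43.0, 48.0 and 43.7 CPM, 46.8, 44.0, 47.7, 45.9 and 50.7 CPM and 50.5, 49.3, 50.8, 51.5 and 50.4 CPM in the same order. Usp13 in the repopulation group was above every control, with a fold of 0.16 (SE 0.05, adjusted p = 0.0103).

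Among members that act on chromatin and DNA repair, 2 of 12 tested were higher on PLX3397 (Usp7 and Usp11), 4 after repopulation against control (Usp7, Usp11, Usp16 and Usp48) and 1 after repopulation against PLX3397 (Usp49). The shares of all genes that were higher were 8.19%, 13.9% and 7.61% in the same order, so the last count is near the background. Usp7 (chr16:8689595-8792308, minus strand, 7.77 kb of exon) controls the p53 regulator MDM2 and several chromatin proteins. It held 188, 199, 193, 194 and 193 CPM in controls, 216, 194, 218, 205 and 218 CPM on PLX3397 and 227, 219, 219, 214 and 223 CPM after repopulation. The repopulation libraries stood above all controls, while PLX3397 replicate 2 lay among them. Folds were 0.12 (SE 0.03, adjusted p = 0.0165) on PLX3397 and 0.19 (SE 0.03, adjusted p = 0.000165) after repopulation.

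Usp48 and Usp16 both remove ubiquitin from histone H2A. Usp48 had means of 135, 142 and 152 CPM in control, PLX3397 and repopulation, with a fold after repopulation of 0.16 (SE 0.04, adjusted p = 0.00143). Usp16 had means of 37.8, 41.3 and 41.9 CPM and a fold of 0.15 (SE 0.05, adjusted p = 0.0373). Usp11, a partner of BRCA2 in repair, had means of 146, 160.1 and 160.1 CPM, with folds of 0.13 (SE 0.04, adjusted p = 0.0356) and 0.13 (SE 0.04, adjusted p = 0.0216) against control. The calls of Usp11 and Usp16 were lost on leaving out single libraries: 5 of 15 for Usp11 on PLX3397 (control 2, 3 and 5, PLX3397 2 and 5, adjusted p up to 0.128), 3 of 15 for it after repopulation (control 5, repopulation 3 and 5, up to 0.0883), and 7 of 15 for Usp16 (control 1, 3, 4 and 5, repopulation 1, 3 and 4, up to 0.103).

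Usp49, which acts on histone H2B, was the member with the largest fold of those called between PLX3397 and repopulation. Its level was 16.2, 14.8, 14.5, 16.3 and 16.5 CPM in controls, 13.3, 14.4, 14.1, 16.4 and 14.9 CPM on PLX3397 and 17.3, 15.7, 16.1, 18.9 and 17.7 CPM after repopulation. The groups overlapped, with the PLX3397 libraries at the low end. The fold was 0.23 (SE 0.07, adjusted p = 0.0183), and against control it was -0.10 (SE 0.07, adjusted p = 0.339) on PLX3397 and 0.13 (SE 0.07, adjusted p = 0.148) after repopulation. The call was lost without PLX3397 replicate 1 or repopulation replicate 4 (adjusted p up to 0.0679), and 51.2% of its exon bases overlap the predicted gene Gm20517 on the same strand, so its count is uncertain. Usp22, with means of 258, 259.7 and 272 CPM, passed no test, nor did its relatives Usp27x and Usp51, Usp1, which acts on PCNA and FANCD2, Usp3, Usp21 or Usp28. The remaining members without a call, Usp35, Usp36, Usp37 and Usp38, had folds of 0.01, -0.03, -0.03 and 0.08 on PLX3397 and 0.15, 0.07, 0.07 and 0.02 after repopulation.

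Usp42 (chr5:143710325-143732280, minus strand, 6.24 kb of exon), linked to p53 and histone H2B, had 26.7, 28.8, 28.7, 32.4 and 30.1 CPM in controls, 30.9, 28.4, 32.1, 31.6 and 33.0 CPM on PLX3397 and 36.9, 34.8, 34.4, 32.9 and 34.6 CPM after repopulation. Repopulation libraries were above all controls, and PLX3397 libraries overlapped both. The fold after repopulation was 0.25 (SE 0.05, adjusted p = 0.00071) against control and 0.16 (SE 0.05, adjusted p = 0.0407) against PLX3397. The second call was lost on leaving out any 1 of 8 libraries (control 3, PLX3397 1, 2 and 4, repopulation 1, 2, 3 and 5, adjusted p up to 0.142).

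Usp47, the closest relative of Usp7 and an enzyme of base excision repair, was very even among controls, with means of 108, 119 and 126 CPM and folds of 0.14 (SE 0.03, adjusted p = 0.00491) on PLX3397 and 0.21 (SE 0.03, adjusted p = 3.4e-05) after repopulation. Usp15, which acts on the TGF-beta receptor complex, had means of 109.9, 121 and 117 CPM and folds of 0.13 (SE 0.03, adjusted p = 0.00728) and 0.09 (SE 0.03, adjusted p = 0.04). The second of these was lost without any 1 of 9 libraries, control 1 to 4 or repopulation 1 to 5 (adjusted p up to 0.116). Its relative Usp4 passed no test, with means of 114, 115 and 114 CPM.

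Usp40 had means of 24.9, 26.7 and 28.8 CPM and was called only after repopulation, at 0.21 (SE 0.06, adjusted p = 0.00778). Usp45 had means of 55.6, 64.0 and 60.1 CPM and was called only on PLX3397, at 0.20 (SE 0.05, adjusted p = 0.0092). Whether these effects differ between the treated groups was tested by the fold between them, which was 0.11 (SE 0.06, adjusted p = 0.207) for Usp40 and -0.09 (SE 0.05, adjusted p = 0.274) for Usp45, so neither difference passed.

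Of the 3 members of organelle membranes, 0 were higher on PLX3397 and 1 after repopulation, and of the 4 with lost or doubtful catalysis 1 and 2 were higher. Of all genes 8.19% and 13.9% were higher, and counts of so few members were not tested against these shares. Usp19, anchored in the endoplasmic reticulum, had means of 181, 183 and 178 CPM, and Usp30, which opposes parkin on the mitochondrial surface, 43.0, 44.6 and 43.1 CPM. Usp25, with a role in endoplasmic reticulum quality control, had a fold of 0.14 (SE 0.05, adjusted p = 0.031) after repopulation, a call lost without any 1 of 5 libraries (control 2 and 3, repopulation 2, 3 and 4, adjusted p up to 0.123). Usp53 rose on PLX3397 by 0.19 (SE 0.05, adjusted p = 0.0148) and after repopulation by 0.18 (SE 0.05, adjusted p = 0.00954). Usp54 was called after repopulation, at 0.12 (SE 0.04, adjusted p = 0.0409), beside 0.11 (SE 0.04, adjusted p = 0.0946) on PLX3397 and a fold between the treated groups of 0.01 (SE 0.04, adjusted p = 0.9). It lost the call after repopulation without any 1 of 9 libraries, control 1 to 4 or repopulation 1 to 5 (adjusted p up to 0.136). Usp39, a splicing factor without catalytic activity, was the lowest fold after repopulation, at -0.10 (SE 0.05, adjusted p = 0.115), and was not called. Of the 4 genes listed here as testis-enriched, Usp50 stayed below 1 CPM, and Usp26 and Usp44 were nearly absent. Usp29 went against that label in this cortex, at 35.7, 39.7 and 40.3 CPM with no call.

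Values closest to the threshold were Usp11 (adjusted p = 0.0356) and Usp43 (0.0405) inside and Usp24 (0.072) and Usp54 (0.0946) outside on PLX3397. After repopulation against control they were Usp15 (0.04) and Usp54 (0.0409) inside and Usp43 (0.0558) and Usp35 (0.0694) outside.

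The family's genes hold long exon sequence. Members had a median of 7.64 kb of annotated exon beside 3.93 kb for all tested genes, a median gene span of 56.6 kb beside 20.3 kb, and a median transcript GC content of 47.9% beside 49.9%. Of the 46 members, 25 (54.3%) lay in the longest quintile of all tested genes, which begins at 7032 bases of exon. Among all genes of that quintile, 22.4% were higher on PLX3397 and 5.82% lower, and 38.4% were higher after repopulation and 4.9% lower. Of the 25 members there, 9 were higher on PLX3397 (36.0%), beside 22.4%, and 15 after repopulation (60.0%), beside 38.4%, with 0 lower. Between PLX3397 and repopulation 2 of the 25 were higher and 0 lower, beside 14.6% and 3.87% of the quintile. In the next quintile, from 4715 to 7032 bases, 3 of 13 members were higher on PLX3397 beside 10.4% of genes, and 3 of 13 after repopulation beside 16.1%.

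GC content went with the folds as well. Among all genes of the lowest quintile by GC content, 18.7% were higher on PLX3397 and 22.3% after repopulation, against 0.976% and 5.13% in the highest quintile. Of the 12 members in the lowest quintile, 8 were higher on PLX3397 and 8 after repopulation, and of the 5 in the highest quintile 1 and 0 were. Across the 46 members, Spearman's rho of the fold with exon length was 0.35 on PLX3397 and 0.26 after repopulation, and with GC content -0.61 and -0.40. Over 17956 genes the same values were 0.19 and 0.29 with length and -0.33 and -0.21 with GC content. These are correlations across genes measured in the same libraries, and genes are not independent replicates.

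**Figure D3:**
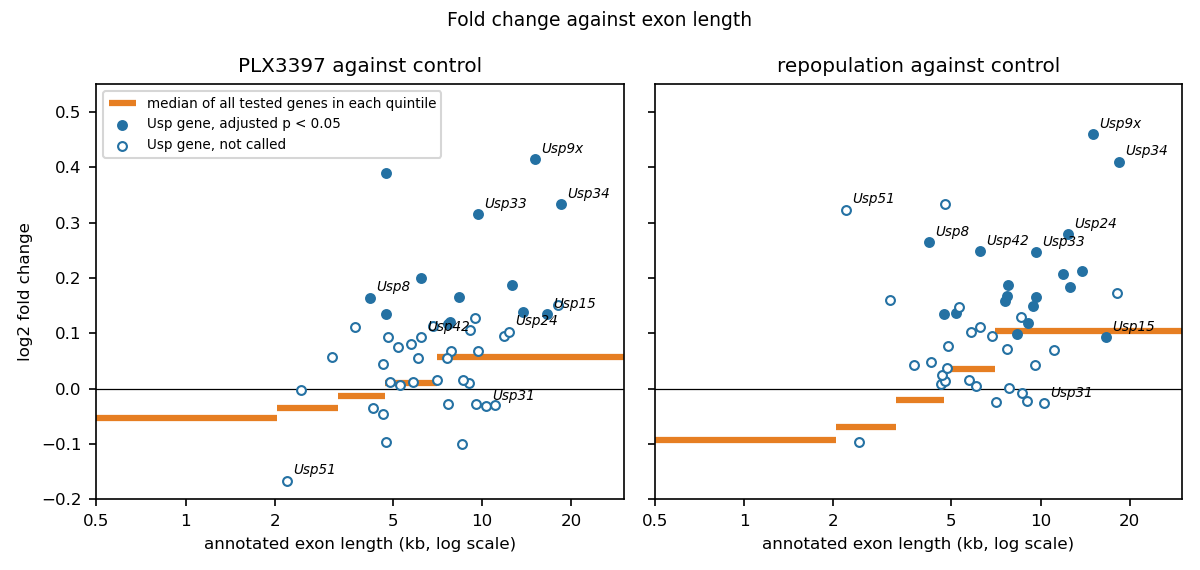
Log2 fold change against annotated exon length in kb (log axis) for the 46 USP genes (filled, adjusted p below 0.05) on PLX3397 and after repopulation, with the median of all tested genes in each length quintile as orange bars. The bars climb with length, reaching 0.06 and 0.10 in the longest quintile, and Usp9x, Usp34 and Usp33 lie above them in both panels. The first and last bars are drawn from 0.5 kb and to 30 kb.

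A trend of each library's counts with exon length and GC content, estimated over all genes, was then taken out and the test repeated. On PLX3397, 5 members were higher (Usp8, Usp9x, Usp33, Usp34 and Usp43) and 1 was lower (Usp37), beside 3.98% of all genes higher and 6.5% lower. After repopulation 6 were higher than in controls (Usp8, Usp9x, Usp24, Usp33, Usp34 and Usp42) and 4 were lower (Usp4, Usp15, Usp31 and Usp46), beside 7.61% and 15.6% of all genes. Between PLX3397 and repopulation, Usp8 and Usp24 were higher and Usp14, Usp15, Usp19, Usp20 and Usp33 lower, beside 5.14% and 9.42%. The family's median fell to 0.03 on PLX3397, 0.03 after repopulation and -0.01 between them, beside -0.004, -0.011 and -0.017 for all genes. Of the members called with no correction, 5 of 13, 7 of 19 and 1 of 3 were called again in the order PLX3397, repopulation against control and repopulation against PLX3397, and Usp15 was among the 7 with its sign turned.

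With both trends out, Usp9x remained higher by 0.27 (adjusted p = 8.5e-05) on PLX3397 and 0.25 (adjusted p = 0.000153) after repopulation, and Usp34 by 0.18 (adjusted p = 0.000631) and 0.18 (adjusted p = 0.000335). Usp33 stood at 0.21 (adjusted p = 3.6e-05) and 0.10 (adjusted p = 0.0191). Usp8 changed least among these, at 0.13 (adjusted p = 0.0268) and 0.24 (adjusted p = 4.4e-05), and Usp24 and Usp42 were at 0.13 (adjusted p = 0.00897) and 0.20 (adjusted p = 0.00474) after repopulation. Of the members no longer called, Usp11 kept most of its fold, at 0.12 (adjusted p = 0.0698) on PLX3397 and 0.11 (adjusted p = 0.0636) after repopulation, and Usp25 stood at 0.08 (adjusted p = 0.194) after repopulation. Usp47 fell from 0.21 to 0.03 (adjusted p = 0.527) after repopulation, Usp7 from 0.19 to 0.08 (adjusted p = 0.0649) and Usp14 from 0.17 to 0.05 (adjusted p = 0.3) on PLX3397. Usp15 turned from 0.09 to -0.12 (adjusted p = 0.00822) after repopulation.

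**Figure D4:**
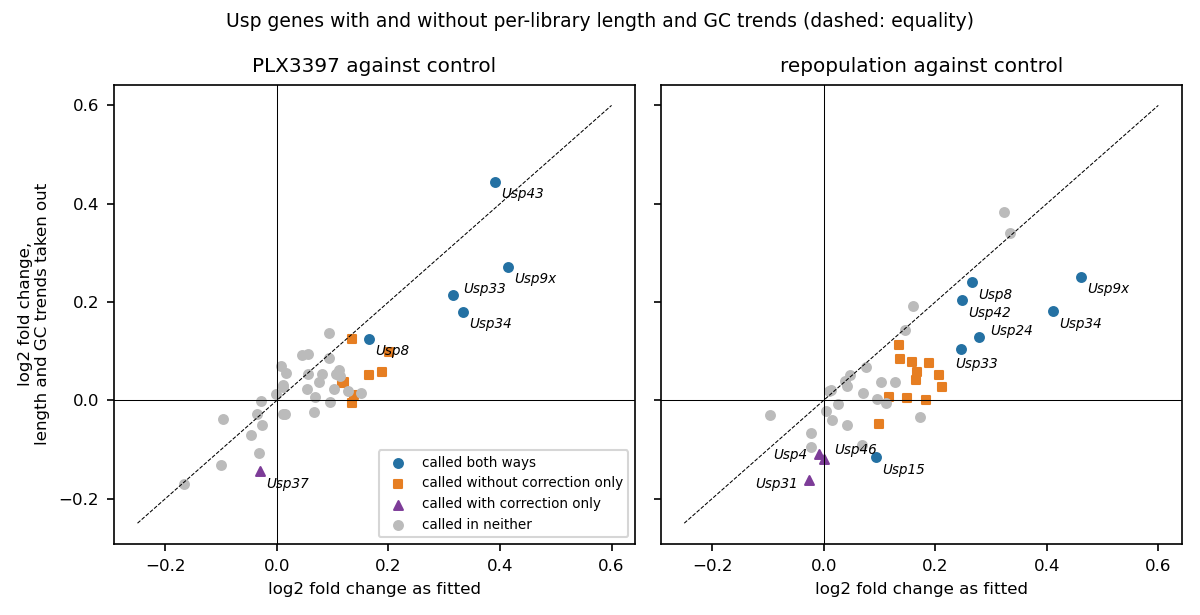
Log2 fold change of each USP gene as fitted (horizontal) and with per-library exon length and GC trends taken out (vertical), on PLX3397 and after repopulation against control, with the line of equality dashed. Most points lie below the line, and those called both ways with a positive fold are Usp8, Usp9x, Usp33 and Usp34 in both panels, Usp43 on PLX3397 and Usp24 and Usp42 after repopulation.

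The sequences just upstream of 3 members that remained higher after repopulation with the trends out, and for which RefSeq gives a window (GRCm38.p6), are shown because these members differ in exon length and in the GC content of their transcripts. Each runs 5′ to 3′ on the gene's strand over the 250 bases before the annotated start, with every CG dinucleotide in capitals. They lie at chr2:126707078-126707327 (Usp8), chr4:106315963-106316212 (Usp24) and chr11:23306645-23306894 (Usp34), all on the plus strand. Windows were matched by symbol for 37 of the 48 members.
Usp8: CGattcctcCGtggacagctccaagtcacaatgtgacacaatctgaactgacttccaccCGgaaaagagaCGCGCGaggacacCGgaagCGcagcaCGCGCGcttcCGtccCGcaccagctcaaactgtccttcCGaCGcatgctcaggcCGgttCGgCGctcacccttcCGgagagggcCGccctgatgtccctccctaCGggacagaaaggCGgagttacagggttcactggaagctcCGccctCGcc
Usp24: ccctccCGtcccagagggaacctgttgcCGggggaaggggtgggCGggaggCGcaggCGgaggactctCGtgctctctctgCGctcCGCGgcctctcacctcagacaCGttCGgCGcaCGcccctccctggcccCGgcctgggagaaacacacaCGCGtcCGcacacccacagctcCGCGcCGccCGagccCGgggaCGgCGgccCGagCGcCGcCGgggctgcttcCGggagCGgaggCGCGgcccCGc
Usp34: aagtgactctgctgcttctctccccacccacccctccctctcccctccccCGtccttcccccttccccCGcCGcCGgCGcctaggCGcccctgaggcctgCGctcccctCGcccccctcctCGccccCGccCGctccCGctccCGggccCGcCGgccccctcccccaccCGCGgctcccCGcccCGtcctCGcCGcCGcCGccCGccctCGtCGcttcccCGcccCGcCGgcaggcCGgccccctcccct
They hold 24, 33 and 30 CG dinucleotides. The 37 windows had a median of 24, from 2 to 55, beside a median of 6 over all 32851 windows given, and 31 of the 37 lay above that median. The 32851 windows were not limited to the genes tested here. Whether the member windows differ from those of other genes expressed in cortex was not tested. The letters TATAAA, on either strand, occurred in 2 of 37 member windows (5.4%) and in 12.4% of all windows, and CCAAT, on either strand, in 8 (21.6%) and 33.8%. These are matches of letters and not binding sites.

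To see whether relatives within the family moved differently, the log2 ratio of the CPM of 14 pairs of related members was compared within each library (exact two-sided permutation test over all splits of 5 against 5 libraries, adjusted over the 14 pairs, smallest possible p = 0.00794). After repopulation, 3 pairs differed from control. The ratio of Usp20 to Usp33 was -0.19, -0.19, -0.22, -0.21 and -0.28 in controls and -0.52, -0.57, -0.44, -0.52 and -0.39 after repopulation. No library of one group reached the other, and the mean changed by -0.27 (exact permutation p = 0.00794, adjusted p = 0.037). The ratio of Usp5 to Usp13 went from 2.23, 2.18, 2.27, 2.17 and 2.21 to 2.05, 2.09, 2.08, 2.00 and 2.09, a change of -0.15 with the same exact p. For Usp31 to Usp43 the change was -0.35 with the same exact p, from 5.70, 4.90, 5.02, 5.01 and 5.23 to 4.84, 4.78, 4.80, 4.89 and 4.79, with control replicate 1 far above the rest and a change of -0.22 without it.

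Usp31 was level over the groups, at 167, 149, 145, 144 and 166 CPM in controls, 168, 139.9, 154, 151 and 141 CPM on PLX3397 and 154, 149.6, 149.9, 159 and 145 CPM after repopulation. Usp43, at 3.13, 4.91, 4.39, 4.41 and 4.37 CPM in controls, 4.06, 4.69, 6.34, 5.57 and 6.97 CPM on PLX3397 and 5.33, 5.39, 5.30, 5.29 and 5.15 CPM after repopulation, is a low gene. The control of lowest Usp43, replicate 1, set much of its spread. Its fold was 0.39 (SE 0.13, adjusted p = 0.0405) on PLX3397, a call lost without any 1 of 8 libraries (control 1, 3, 4 and 5, PLX3397 3 to 5 and repopulation 2, adjusted p up to 0.149), and 0.33 (SE 0.13, adjusted p = 0.0558) after repopulation, which passed without control 2 or PLX3397 1 or 5 (adjusted p down to 0.0339) and fell to 0.22 without control 1 (adjusted p = 0.213). On PLX3397 none of the 14 pairs passed. The ratio of Usp20 to Usp33 changed by -0.30 (exact permutation p = 0.00794, adjusted p = 0.111). With adjustment over 14 pairs, 1 pair alone at the smallest possible p cannot fall below this adjusted p. The test could therefore not call 1 pair alone, and the counts of pairs called do not compare the size of changes between comparisons. Between PLX3397 and repopulation none passed either, with -0.14 for Usp5 to Usp13 (exact permutation p = 0.00794, adjusted p = 0.111). The count of 3 pairs fell to 0 without any 1 of the 5 repopulation libraries, where the adjusted p of Usp20 to Usp33 and Usp5 to Usp13 was 0.0556. That is the lowest adjusted p the test allows when only 2 pairs reach the smallest p. For these 2 pairs the fall therefore does not measure a loss of difference. Usp31 to Usp43 no longer reached the smallest p there, with an adjusted p of 0.0741 to 0.111. With the length and GC trends out, Usp20 to Usp33 changed by -0.20 and Usp31 to Usp43 by -0.50 (both adjusted p = 0.037), and Usp5 to Usp13 by -0.06 (adjusted p = 0.13). The count of pairs called was again 3, so it included a pair not called before, whose values are not given here. The adjusted p of 0.037 depends on that pair also reaching the smallest p.

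**Figure D5:**
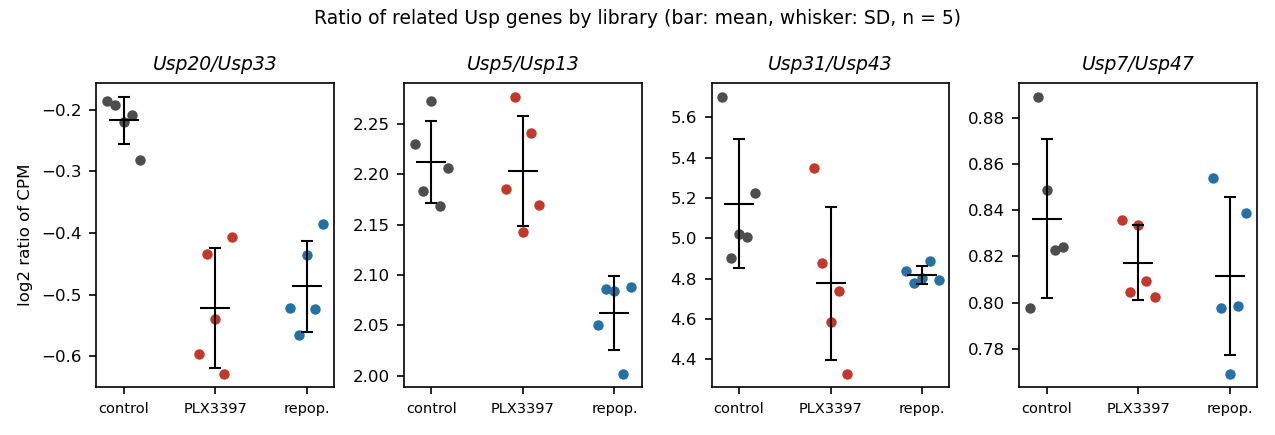
Log2 ratio of CPM of 4 pairs of related USP genes in each library, by group, with the mean as a bar and the SD as a whisker (n = 5). After repopulation the ratios of the first 3 pairs lie below all controls, and the ratio of Usp7 to Usp47, shown as a pair that was not called, overlaps between groups. Each panel has its own vertical scale.

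The other genes of the ubiquitin pathway were counted in the same fit. Of 102 other genes listed (ubiquitin itself, E1 and E2 enzymes, the other deubiquitinase families and partners of USPs), with a median of 4.93 kb of exon, 8 were higher on PLX3397 (7.84%, beside 8.19% of all genes) and 7 lower (6.86%, beside 8.35%). After repopulation 12 were higher than in controls (11.8%, beside 13.9%) and 42 lower (41.2%, beside 15.2%). Against PLX3397, 5 were higher and 31 lower after repopulation (30.4%, beside 8.98%). With the length and GC trends out, 4 pathway genes were higher and 10 lower on PLX3397 (3.98% and 6.5% of all genes), and 7 were higher and 50 lower after repopulation against control (7.61% and 15.6% of all genes). The median of single lists after repopulation moved either way, from -0.15 to -0.18 for the E2 enzymes and from -0.16 to -0.12 for the UCH enzymes.

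Ubb, a polyubiquitin gene, was lower after repopulation than in controls, at 240.0, 229.8 and 193 CPM in control, PLX3397 and repopulation, with a fold of -0.32 (SE 0.04, adjusted p = 1.0e-05). Rps27a, which encodes ubiquitin fused to a ribosomal protein, had a fold of -0.36 (SE 0.05, adjusted p = 1.7e-05). Of the 33 E2 conjugating enzymes, 2 were higher and 19 lower after repopulation, beside 13.9% of all genes higher and 15.2% lower. Ube2m, the E2 of NEDD8, was at 122, 108 and 99.7 CPM, with a fold of -0.29 (SE 0.04, adjusted p = 3.6e-06), and Ube2b at 142, 132 and 115 CPM, with -0.30 (SE 0.04, adjusted p = 1.7e-05). Birc6, a giant E2 and E3 enzyme, went the other way, with 172, 213 and 219 CPM and folds of 0.31 (SE 0.04, adjusted p = 4.2e-06) on PLX3397 and 0.35 (SE 0.04, adjusted p = 1.7e-06) after repopulation.

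Of the 9 E1 enzymes, 2 were higher and 2 lower after repopulation. Of all genes 13.9% were higher and 15.2% lower there, and counts of the short lists in this paragraph were not tested against these shares. Uba7, the interferon-induced E1 of ISG15, was at 4.28, 2.29 and 5.65 CPM, with a fold of -0.91 (SE 0.13, adjusted p = 1.6e-05) on PLX3397, while Uba1, the main E1, had 0.13 (SE 0.03, adjusted p = 0.00171). In the other deubiquitinase families after repopulation, 0 of 4 UCH enzymes were higher and 3 lower, with Uchl1, an abundant neuronal enzyme, at 382, 350.5 and 327 CPM and -0.22 (SE 0.04, adjusted p = 8.9e-05). Of 14 OTU enzymes 3 were higher and 3 lower, with Otub1 at -0.26 (SE 0.04, adjusted p = 1.3e-05) and Vcpip1 at 0.24 (SE 0.04, adjusted p = 3.5e-05). Among 10 JAMM metalloproteases and relatives, 1 was higher (Mysm1, 0.29 (SE 0.04, adjusted p = 1.1e-05)) and 6 lower, among them Cops6 of the COP9 signalosome (-0.29 (SE 0.04, adjusted p = 2.4e-05)). Of 17 listed partners of USPs 2 were higher and 3 lower after repopulation, near the shares of all genes. Among them were Wdr48, the activator of Usp1, Usp12 and Usp46, at 0.18 (SE 0.04, adjusted p = 0.00198) and G3bp2, a relative of the Usp10 partner G3bp1, at -0.16 (SE 0.03, adjusted p = 0.000878). With the length and GC trends out, 0 of the 17 partners were higher and 6 lower, so Wdr48 was not called higher. OTU enzymes then numbered 1 higher and 4 lower. Folds of single pathway genes are given without that correction.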

How the data were processed

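The deposited values are whole-number counts per gene, not normalized. Tools named without roles are STAR, FastQC, MultiQC, DESeq and DESeq2, with the genome mm10, per the submitters' processing notes. The counter, its annotation and whether it used strand are not given in the sources. All 15 columns carried a group and mouse number that matched the labels.

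Genes were kept by filterByExpr, scaled with TMM factors and tested with the quasi-likelihood F test (robust) of edgeR 4.0.16 in R 4.3.3 over all 15 libraries with no covariate. Benjamini-Hochberg adjustment ran over 18369 genes, with calls below 0.05. SE was derived from the test, as the absolute log2 fold change divided by the square root of the F statistic. Values per group are the mean ± SD (n = 5 mice). At these depths precision limits mainly genes near 1 CPM. The tests were first run on simulated data.

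Lengths, GC content and positions came from GENCODE release 21 for mouse (GRCm38), matched by symbol for 93.3% of the table and 97.8% of the tested genes. The length and GC trends were robust natural splines (5 df) of each library's log2 counts, entered as offsets. Log2 ratios of related members used a prior count of 2.

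Alternatives were RLE factors, library totals, other filters, DESeq2 1.42.0, fits of 2 groups, a replicate block, trends of length, span and GC content, and leaving out each library. Members, lists and tests were chosen with earlier results of these data known. Per-library values are given for the members with the 5 smallest adjusted p in each direction and comparison, for Usp7, Usp9x, Usp14 and Usp33 and for pairs that were called, and at most 3 genes of each pathway list are named, by smallest adjusted p; Stam and other genes beyond this are named as partners. No pair of libraries held identical values. The values of 1 listed pathway gene are not reported here.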

Additional observations from a re-analysis of the deposited data

Results flagged for a closer look

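In 75 sets of 5 values checked, 2 libraries stood apart by Dixon's ratio, which chance alone exceeds in about 1 of 20 sets. The sets were 25 members in each group: the 22 called in at least 1 comparison, and Usp5, Usp20 and Usp31. Usp34 in PLX3397 replicate 5 was at 218 CPM, above the next library at 194 CPM, with a gap of 0.716 of the group's range. Usp45 in repopulation replicate 4 was at 55.4 CPM, below the next at 60.3 CPM, with a gap of 0.734 of the range.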

How the results depend on the processing

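Counts of USP genes kept their direction under RLE factors, other filters, DESeq2 and fits of 2 groups. With library totals in place of TMM, members higher after repopulation against PLX3397 numbered 7 and other pathway genes 8, and 11 pathway genes were lower on PLX3397 (3 with 2 groups fitted). With the exon length and GC trends out, members numbered 5 higher and 1 lower on PLX3397 (median 0.0333), 2 higher and 5 lower after repopulation against PLX3397 (-0.0058) and 6 higher and 4 lower against control (0.0284), with 4 and 7 pathway genes higher on PLX3397 and after repopulation. With the length trend alone, members in the same order were 7 higher (0.0327), 1 higher and 4 lower (-0.0127), and 7 higher and 6 lower (0.0312), with 3 and 6 pathway genes higher. With the span trend they were 8 higher (0.0413), 4 higher and 1 lower (0.011) and 9 higher (0.048). A GC trend alone, chosen after seeing the data, gave 7 members and 5 pathway genes higher on PLX3397. After repopulation it gave 4 members higher against PLX3397 and 16 against control, 13 of them among the 19 called without it.

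With length and GC trends out, the sign turned for Usp15 on PLX3397 (-0.00633) and, after repopulation, for Usp15 (-0.115), Usp53 (-5.3e-05) and Usp14 (-0.0482). With length alone it turned for Usp15 (-0.0945), Usp54 (-0.000922) and Usp14 (-0.00937), and with span for Usp15 (-0.000672). The cause was not tested.

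Replicate numbers recur in the groups, and the labels do not say that they pair mice. Deviations of same-numbered libraries had correlations of -0.13 to 0.10, beside -0.15 to 0.18 for different numbers. This cannot show whether same-numbered mice shared a step of handling. A replicate block gave 12, 2 and 18 members higher in the order above. The replicate block with length and GC trends out gave 5 higher and 1 lower (median 0.0281, 3 pathway genes higher), 2 higher and 6 lower (-0.00538), and 7 higher and 4 lower (0.0285, 6 pathway genes higher), with Usp15 at -0.00683 on PLX3397 and -0.115 after repopulation and Usp14 at -0.0484.

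Leaving out 1 library gave 10 to 14, 1 to 5 and 14 to 21 members higher, with medians of 0.0643 to 0.0915, 0.0199 to 0.0563 and 0.0955 to 0.114, and 0 lower. Pathway genes ran from 5 to 8 higher and 4 to 9 lower on PLX3397, 4 to 8 and 24 to 38 after repopulation against PLX3397, and 9 to 12 and 36 to 46 against control. Pairs called after repopulation ran from 0 to 4, with ratio changes of -0.295 to -0.25 (Usp20 to Usp33), -0.161 to -0.135 (Usp5 to Usp13) and -0.42 to -0.22 (Usp31 to Usp43). Usp5 to Usp13 was -0.0591 with the trends out. Among tested members, depth limits Usp50 and Usp51 most.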
